A study of Trichoderma reesei with 4 samples.

Results

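A set of 119 Trichoderma reesei genes kept about their mycelial expression at the first sampled time of sporulation and was lower at the last. The members were chosen from the deposited mean log2 expression of all 9126 array features by 2 conditions. The mean at 3 h lay within 0.6 log2 units of the mean at 0 h, and the mean at 9 h lay at least 1 log2 unit, a 2-fold change, below it. The changes at 3 h and at 9 h against 0 h are therefore a description of how the set was chosen, also where a count by adjusted p is given, whereas the 6 h arrays took no part in the choice. In all, 494 features were at least 2-fold lower at 9 h by their means. Of these, 366 had already fallen by more than 0.6 at 3 h, 9 stood more than 0.6 above mycelium at 3 h, and the remaining 119 form the set.

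The 4 groups were mycelium, taken as the 0 h control, and cultures 3, 6 and 9 h into sporulation. All were of strain QM9414, described in the labels as a low cellulase producing mutant, and grew on cellophane over malt extract agar before being scraped off for total RNA. A 1-colour array of the predicted genes, read in Cy3, gave the expression values. Each time is represented by 2 biological replicas, of which the deposited table gives the mean and the SD. With 2 values, the mean and SD fix both replica values, and the pairs of levels printed here were rebuilt in that way. No culture kept from sporulating was sampled at 3, 6 or 9 h, so sporulation and time in culture cannot be told apart. In such bulk samples, fewer cells of a type and less RNA per cell cannot be told apart either.

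Asexual sporulation, or conidiation, turns growing hyphae into branched conidiophores that bud off spores coated with hydrophobins, small secreted proteins that make surfaces water-repellent. In Aspergillus nidulans, where it is best studied, transcription regulators acting one after another turn genes on and off in succession as conidiophores form. Markers of this programme were already higher at 3 h in these arrays. Expression of lxr1, the D-mannitol dehydrogenase gene whose enzyme the submitters used as a marker, was 13.33 ± 0.12 after 3 h and 11.96 ± 0.2 in mycelium (SD, n = 2 each), a log2 change of 1.37 (adjusted p = 0.00014, limma). The hydrophobin genes hfb2 and hfb3 had changed by 3.1 and 4.52 by then (adjusted p = 1.47e-05 and 3.73e-06, limma). All levels here are log2 values from RMA, the normalization the authors used, and the median over all features lay between 11.53 and 11.56 in each group.

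The gene table (RefSeq, assembly v2.0 of strain QM6a) listed all 119 members but gave a symbol to 1 of them, erg28. The other 118 are known here by identifier, and no function is given for them. Over the array, 235 features had a symbol.

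**Figure D1:**
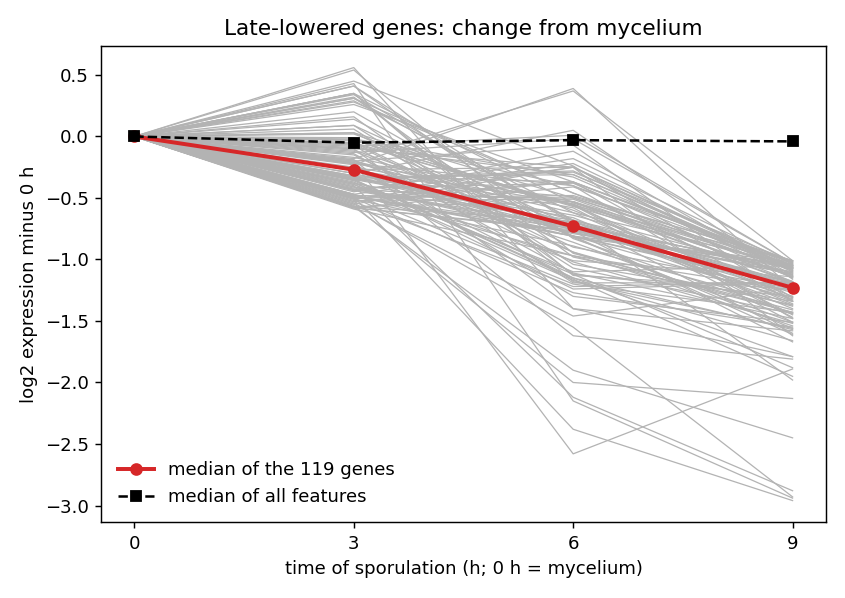
Change in mean log2 expression from 0 h (y axis) against time in hours (x axis) for each of the 119 late-lowered genes (grey lines), with their median in red and the median of all 9126 features in black, dashed. The red line passes -0.27 at 3 h, -0.73 at 6 h and -1.23 at 9 h, while the black line stays between -0.05 and 0; the values at 3 h and 9 h are bounded by the choice of the genes.

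At the time that took no part in the choice, 6 h, the set stood between its 0 h and 9 h levels. Expression was below the 0 h mean in 115 of the 119 genes, with a median log2 change of -0.73, against -0.03 over all features. The middle 50% of the members lay between -1.01 and -0.49, and the range ran from -2.58 to 0.39. Of the 119, 31 were at least 2-fold lower at 6 h than in mycelium and had an adjusted p under 0.05 (limma's moderated test, Benjamini-Hochberg adjustment over all features), or 26.1%, where 4.27% of all features were. By adjusted p alone 92 were lower, or 77.3%, against 19.4% of all features, and 0 members were higher by either count, beside 6.68% and 20.0% of all features. Both replicas at 6 h lay below both at 0 h in 104 members, where this held for 38.3% of all features. The 0 h arrays also entered the choice of the genes, and a 0 h mean that happened to be high favours both membership and a lower 6 h value, so these counts are not independent of the rule.

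The median member had reached 57.2% of its 9 h fall at 6 h, and the middle 50% of members between 38.5% and 72.6%. By their 6 h means the genes fell into 3 groups: 31 were already at least 2-fold below mycelium, 42 were between 0.6 and 1 log2 unit below it, and 46 were still within 0.6 of it. Expression was highest at 0 h in 90 members, at 3 h in 25 and at 6 h in 4. It was lowest at 9 h in 113 and at 6 h in 6.

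Many members were already somewhat lower at 3 h. Although bounded by the rule, the 3 h change was negative in 94 members, with a median of -0.27. By adjusted p alone 38 members were lower at 3 h, or 31.9%, beside 23.9% of all features. Higher at 3 h by the same measure were 6 members, beside 20.0% of all features. In 66 genes the mean was lower at each successive time, and in 25 it was above mycelium at 3 h and then lower at 6 h and again at 9 h.

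The change at 9 h was mostly modest. It lay between 1 and 1.5 log2 units in 91 members, between 1.5 and 2 in 22 and beyond 2, a 4-fold change, in 6. All 119 passed the adjusted p for 9 h against 0 h, beside 5.4% of all features that were lower at 9 h with a 2-fold change. The rule used this contrast, so nothing is read from that count. Just inside the 9 h limit were TRIRE2_65640 at -1.01 and TRIRE2_105220 at -1.013, and just outside TRIRE2_79244 at -0.999 and TRIRE2_65229 at -0.998. Nearest to the lower 3 h limit were TRIRE2_112002 at -0.594 and TRIRE2_75204 at -0.584 inside, with TRIRE2_76155 at -0.609 and TRIRE2_1947 at -0.616 outside. At the upper 3 h limit, TRIRE2_108591 at 0.559 and TRIRE2_110158 at 0.536 were in, and TRIRE2_70998 at 0.648 and TRIRE2_67579 at 0.649 were out.

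Before their fall the members covered most of the array's range of levels. At 0 h they ranged from 5.76 to 15.89 with a median of 11.91, and 69 of the 119 were above the median of all features. The top 10% of the array at 0 h began at 13.86 and held 17 members, or 14.3%. At 9 h the members' median was 10.51 and their range 4.63 to 14.66. A floor for these values comes from 3 features of MAT1-1, a mating-type locus that this strain is not expected to carry, which read 4.0 to 5.53 over the 4 times. The 9 h means of 2 members, TRIRE2_112568 at 4.63 and TRIRE2_112230 at 5.13, lay within that range, so the size of their falls is not exact. Array signal depends on the probes as well as on the transcript, so these are signals and not amounts of RNA. The replicas of the members were slightly further apart than those of the array as a whole, with a median SD of 0.12 in mycelium, against 0.0981 over all features. The genes were also shorter, with a median span on the assembly of 1129 bases, against 1503 bases for all features with a listed gene. That difference was not tested.

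**Figure D2:**
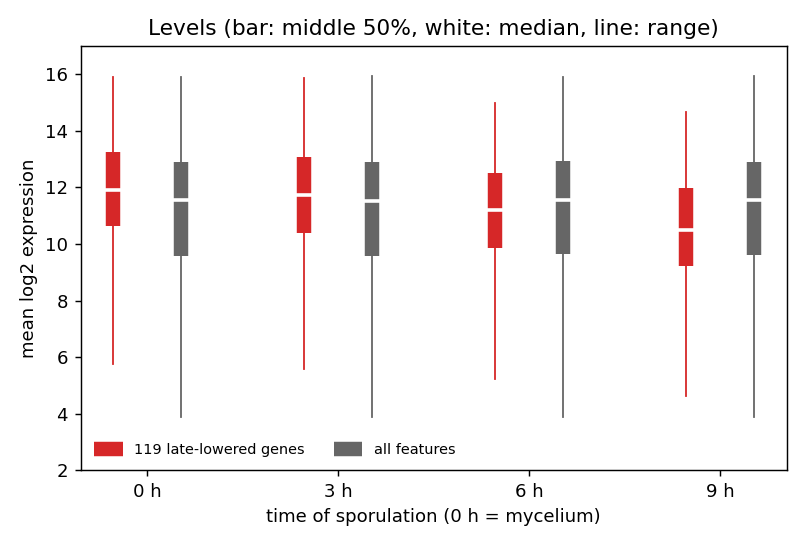
Mean log2 expression (y axis) at each time (x axis) for the 119 late-lowered genes (red) and all 9126 features (grey); the thick bar spans the middle 50%, the white mark is the median and the thin line the full range. The red medians are 11.91, 11.72, 11.2 and 10.51 at 0, 3, 6 and 9 h, and the grey medians stay between 11.53 and 11.56.

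The member with a symbol, erg28, encodes a protein of the endoplasmic reticulum membrane that in Saccharomyces cerevisiae holds together the enzymes removing methyl groups from the sterol ring on the way to ergosterol. Its replica levels were 11.7 and 11.98 in mycelium, 11.28 and 11.42 after 3 h, 11.24 and 11.42 after 6 h, and 10.76 and 10.81 after 9 h. The 9 h pair lay below all 6 earlier values, and the pairs at 3 h and 6 h overlapped. Against 0 h the change at 6 h was -0.5 ± 0.13 (SE, adjusted p = 0.0153, limma), under 2-fold, and at 9 h it was -1.05. Between 3 h and 6 h it was -0.02 (adjusted p = 0.938, limma), with nearly equal means at these times. No other gene of sterol synthesis carries a symbol in the gene table, so whether the pathway moved with erg28 was not tested.

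Of the 235 features with a symbol, 147 fell into 15 functional lists, and 0 of those genes were members, where 119 of all 9126 features were. At so small a share few members would be looked for among 147 genes, so nothing is read from the count. The lists included 42 ribosomal protein genes, 20 genes of chitin degradation, 17 cellulase and hemicellulase genes, 12 of carbohydrate and polyol metabolism, 11 of signalling, 8 small GTPase genes, 8 of the secretory pathway, 7 of the proteasome and ubiquitin, and 5 histone genes. Counted with both thresholds, 10 of the 42 ribosomal protein genes were lower after 3 h, where 4.8% of all features were, 0 after 6 h and 0 after 9 h. Their median change was -0.76 at 3 h and -0.33 at 9 h, beside -0.05 and -0.04 over all features. Of the 7 proteasome and ubiquitin genes 1 was lower at 9 h, psa7, a subunit of the proteasome core, with a list median of -0.65. The 3 h level of psa7 was 13.78 ± 0.14, against 14.6 ± 0.11 in mycelium (SD, n = 2 each), a change of -0.82 that put it outside the set. The other symbols at least 2-fold lower at 9 h were also outside it at 3 h. The protease gene prb1 was at -2.88 there, pap1 at -5.23, and the chitinase genes chi18-14 and chi18-17 at -1.16 and -1.38, with mycelial signals of 5.71 and 5.82 near the MAT1-1 floor. The superoxide dismutase gene sod1 was at 3.91 at 3 h.

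The largest late falls among well-expressed members came in genes without a symbol. Genes named for the size of their change were chosen on these same arrays, so their single adjusted p-values describe them and are no independent evidence. TRIRE2_76659 had replica levels of 11.84 and 12.03 in mycelium, 11.27 and 11.53 after 3 h, 10.28 and 10.48 after 6 h, and 8.93 and 9.08 after 9 h. No pair overlapped another, and the level was lower at each time. It was 2.93-fold lower at 6 h than at 0 h (adjusted p = 8e-05, limma), and a further 2.6-fold lower at 9 h than at 6 h (adjusted p = 0.00165, limma), 7.63-fold below mycelium in all.

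TRIRE2_5614 had levels of 12.91 and 13.01 in mycelium, 12.37 and 12.4 after 3 h, 11.06 in both replicas after 6 h, and 10.39 and 10.64 after 9 h. Most of its fall, 77.5%, was present at 6 h, where it was 3.72-fold below mycelium (adjusted p = 9.2e-06, limma). TRIRE2_107037 read 13.81 and 14.06 in mycelium, 13.2 and 13.56 after 3 h, 11.93 in both replicas after 6 h, and 11.73 and 11.87 after 9 h. It was 4.01-fold below mycelium at 6 h (adjusted p = 2.91e-05, limma), and its further change to 9 h of -0.13 did not pass (adjusted p = 0.575, limma). By these means both genes stepped down mainly between 3 h and 6 h. Both were also among the 5 named as lowest at 6 h, a choice that favours such an early step.

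TRIRE2_106686 was lowest at 6 h. Its levels were 13.21 and 13.23 in mycelium, 12.97 and 13.05 after 3 h, 10.57 and 10.71 after 6 h, and 11.3 and 11.35 after 9 h. Its 3 h and 0 h values lay close together, far above those at 6 h and 9 h. The 6 h level was 5.96-fold below mycelium (adjusted p = 1.03e-06, limma) and 5.16-fold below 3 h (adjusted p = 5.68e-06, limma). From 6 h to 9 h it rose by 0.68 ± 0.1 (SE, adjusted p = 0.00599, limma), and it was the 1 member that rose over that step by adjusted p.

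TRIRE2_70973 and TRIRE2_70984 lie 3 places apart in the gene order and had 3 h means 0.34 and 0.16 above mycelium. The replicas of TRIRE2_70973 were 11.03 and 11.72 in mycelium, 11.46 and 11.98 after 3 h, 10.59 and 10.79 after 6 h, and 9.21 and 9.59 after 9 h. Those of TRIRE2_70984 were 11.77 and 11.97 in mycelium, 11.85 and 12.21 after 3 h, 10.75 in both replicas after 6 h, and 9.89 and 10.1 after 9 h. In both genes the 0 h and 3 h pairs overlapped, and the 6 h and 9 h pairs lay below them. Against 0 h the 6 h change of TRIRE2_70984 was -1.12 (adjusted p = 0.000651, limma), whereas that of TRIRE2_70973, whose 0 h replicas differed more, was -0.69 and did not pass (adjusted p = 0.0679, limma). Of the 2 genes between them, TRIRE2_70998 was the feature just outside the upper 3 h limit, with a 9 h change of -1.21. The other, TRIRE2_70967, was above mycelium at 9 h, at 0.35.

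TRIRE2_62462, TRIRE2_82309, TRIRE2_123726 and TRIRE2_43161 complete the 10 largest falls. TRIRE2_62462 was closely replicated, at 13.11 and 13.13 in mycelium, 13.02 in both replicas after 3 h, 11.65 and 11.79 after 6 h, and 11.24 and 11.41 after 9 h. TRIRE2_82309 had one of the highest signals, at 14.88 and 15.03 in mycelium, 14.47 and 14.74 after 3 h, 13.7 and 13.89 after 6 h, and 13.13 and 13.2 after 9 h. In these genes the 6 h replicas lay below those of 0 h and 3 h.

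TRIRE2_123726 read 12.19 and 12.57 in mycelium, 12.1 and 12.27 after 3 h, 10.53 and 10.98 after 6 h, and 10.39 and 10.75 after 9 h. TRIRE2_43161 read 10.62 and 10.83 in mycelium, 10.23 and 10.44 after 3 h, 9.46 and 9.65 after 6 h, and 9.06 and 9.08 after 9 h. Compared with 0 h, these 4 genes were 2.64-fold, 2.22-fold, 3.08-fold and 2.25-fold lower at 6 h in the order named, each past both thresholds. In TRIRE2_123726 the 6 h and 9 h pairs overlapped, and its fall was 89.5% complete at 6 h. This gene was also among the 5 named as lowest at 6 h, a choice that favours such a share.

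Falls as large as that of TRIRE2_76659, or nearly so, were seen in 3 members of low mean level, which are named here after their values were seen. TRIRE2_33371 was at 9.19 and 9.95 in mycelium, 8.87 and 9.29 after 3 h, 7.12 and 7.26 after 6 h, and 6.51 and 6.72 after 9 h, a change of -2.96 in all. TRIRE2_105233 was at 8.74 and 9.0 in mycelium, 9.0 and 9.59 after 3 h, 6.68 and 6.77 after 6 h, and 5.91 and 5.94 after 9 h, which comes close to the MAT1-1 floor. TRIRE2_104261 was at 9.69 and 10.12 in mycelium, 9.18 and 9.82 after 3 h, 7.68 and 7.88 after 6 h, and 6.86 and 7.19 after 9 h, a change of -2.88. In all 3 genes the mycelial and 3 h pairs overlapped or met, and the 6 h pair lay more than 1 unit below both. Their 6 h changes against 0 h were -2.38, -2.15 and -2.12, and all 3 passed both thresholds.

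**Figure D3:**
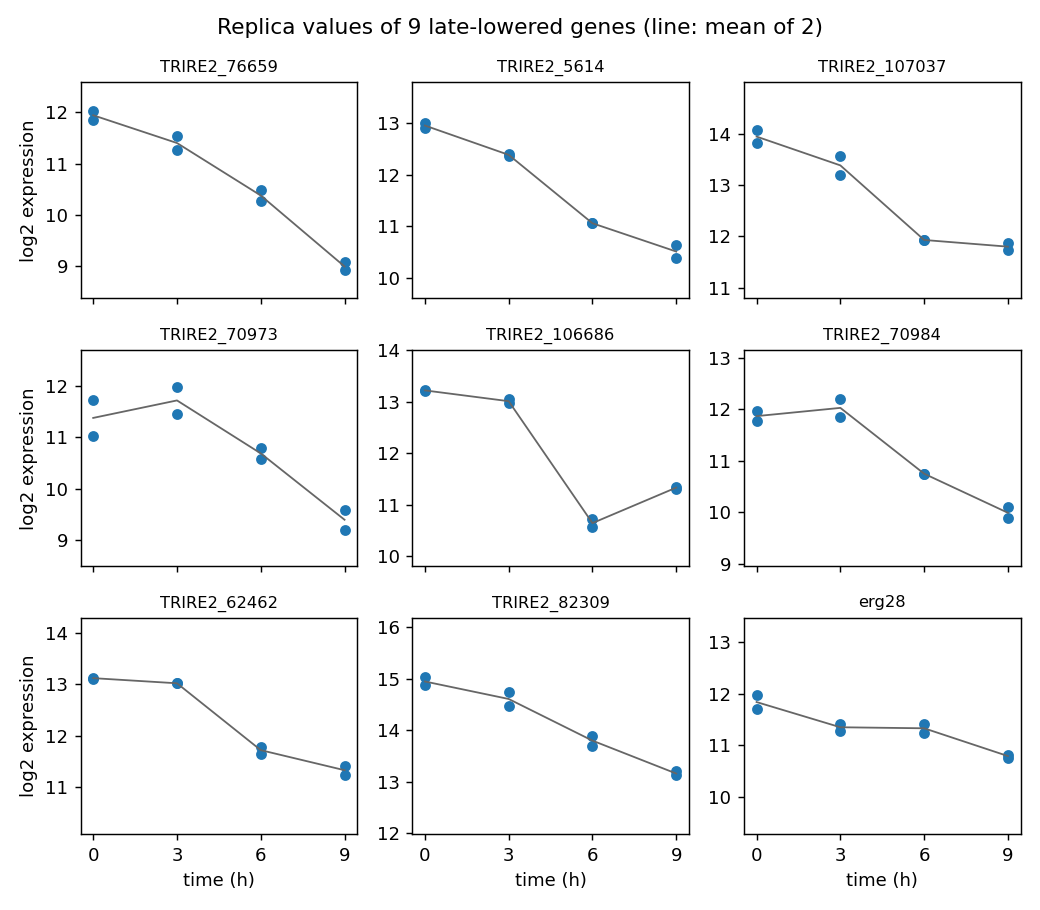
Log2 expression (y axis, each panel spanning the same 4.2 units) against time in hours (x axis) for 9 late-lowered genes; points are the 2 replica values rebuilt from the deposited mean and SD, and the line joins the means. TRIRE2_76659 is lower at every time, TRIRE2_106686 is lowest at 6 h at 10.64, and erg28 has nearly equal means of 11.35 and 11.33 after 3 h and 6 h.

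Among well-expressed members, 5 were named as nearest to their mycelial level at 6 h. That choice, with the rule's fall at 9 h, places most of their fall in the last step, so its size is given here with no test. TRIRE2_29756 had replica levels of 11.11 and 11.55 in mycelium, 10.77 and 11.0 after 3 h, 11.14 and 11.27 after 6 h, and 10.08 and 10.33 after 9 h. TRIRE2_43225 had 13.54 and 13.86 in mycelium, 13.19 and 13.33 after 3 h, 13.45 and 13.59 after 6 h, and 12.62 and 12.71 after 9 h. In both genes the 6 h pair overlapped the 0 h pair, and the 9 h pair lay below all others.

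TRIRE2_65997 had 11.57 and 11.6 in mycelium, 11.01 and 11.21 after 3 h, 11.35 and 11.37 after 6 h, and 10.31 and 10.72 after 9 h. TRIRE2_111502 had 13.74 and 13.96 in mycelium, 13.15 and 13.44 after 3 h, 13.56 and 13.65 after 6 h, and 12.75 and 12.8 after 9 h. These genes, like TRIRE2_29756 and TRIRE2_43225, had a 3 h mean below their 6 h mean, by 0.25 to 0.33, and none of these 4 differences passed the test. TRIRE2_70341 differed in being higher at 3 h, with 12.74 and 12.89 in mycelium, 13.03 and 13.5 after 3 h, 12.46 and 12.68 after 6 h, and 11.42 and 11.57 after 9 h.

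The 6 h changes of these 5 genes against 0 h ran from -0.25 to -0.12. From 6 h to 9 h they fell by 1.0, 0.86, 0.84, 0.83 and 1.07 log2 units in the order named.

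The 4 members whose 6 h mean was above that of 0 h were TRIRE2_63881 at 0.39, TRIRE2_65640 at 0.37, TRIRE2_60739 at 0.05 and TRIRE2_111891 at 0.01, and none of these passed the test. TRIRE2_63881 was at 10.85 and 11.09 in mycelium, 10.7 and 10.79 after 3 h, 11.26 and 11.46 after 6 h, and 9.55 and 9.93 after 9 h. TRIRE2_65640 was at 9.83 and 9.96 in mycelium, 9.64 and 9.79 after 3 h, 10.2 and 10.32 after 6 h, and 8.67 and 9.1 after 9 h. Both rose from 3 h to 6 h, by 0.61 and 0.55 (adjusted p = 0.0247 and 0.0373, limma), the 2 members to do so by adjusted p. They then fell by 1.62 and 1.38 from 6 h to 9 h. Both are given here for a high 6 h mean, which favours the rise before it and the fall after it. Their p-values are therefore no independent evidence.

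At the opposite end, TRIRE2_108591, the member with the largest excess at 3 h, was at 10.82 and 10.9 in mycelium, 11.29 and 11.55 after 3 h, 9.34 and 9.58 after 6 h, and 9.27 and 9.3 after 9 h. Its fall from 3 h to 6 h was 3.89-fold (adjusted p = 5.31e-05, limma), and its change from 6 h to 9 h of -0.17 did not pass.

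The other members higher at 3 h by adjusted p were TRIRE2_104277, TRIRE2_110158, TRIRE2_65891, TRIRE2_69736 and TRIRE2_70860, named after their values were seen. TRIRE2_104277 read 12.89 and 12.9 in mycelium, 13.2 and 13.31 after 3 h, 11.71 and 11.74 after 6 h, and 11.3 and 11.37 after 9 h. TRIRE2_110158 read 11.19 and 11.29 in mycelium, 11.55 and 12.0 after 3 h, 10.23 and 10.35 after 6 h, and 9.79 and 9.86 after 9 h. In both the 3 h pair was the highest of the 4 and the 6 h pair lay well below mycelium.

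TRIRE2_65891 read 11.26 and 11.4 in mycelium, 11.62 and 11.74 after 3 h, 10.12 and 10.27 after 6 h, and 10.07 and 10.11 after 9 h. TRIRE2_69736 and TRIRE2_70860 had smaller changes, of 0.31 and 0.29 at 3 h, -0.68 and -0.62 at 6 h, and -1.11 and -1.04 at 9 h. From 3 h to 6 h these 5 genes and TRIRE2_108591 changed by -1.96 to -0.91. From 6 h to 9 h they changed by -0.46 to -0.11. The choice of genes with a high 3 h value favours this difference. In the test over all members given below, TRIRE2_108591, TRIRE2_65891, TRIRE2_104277 and TRIRE2_110158 lay below the midpoint of 3 h and 9 h. That result is favoured by the same choice and is no independent evidence.

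The members of highest signal, also named after their values were seen, were TRIRE2_121251 and TRIRE2_51365. TRIRE2_121251 read 15.87 and 15.92 in mycelium, 15.82 and 15.87 after 3 h, 14.88 and 15.11 after 6 h, and 14.64 and 14.68 after 9 h. Its mycelial mean of 15.89 was the highest of the whole array at that time, so its signal may have been limited by the upper end of the scale. The changes of -0.05 at 3 h and -0.9 at 6 h may therefore understate those of its RNA. TRIRE2_51365 read 15.41 and 15.69 in mycelium, 15.15 and 15.17 after 3 h, 14.44 and 14.47 after 6 h, and 14.41 and 14.59 after 9 h. Its 6 h and 9 h pairs overlapped, and its change from 6 h to 9 h was 0.04 (adjusted p = 0.834, limma).

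Among weaker members, 2 that fell in the last step are given here, chosen for that step after their values were seen. TRIRE2_74215 read 9.27 and 9.42 in mycelium, 9.01 and 9.48 after 3 h, 9.08 and 9.12 after 6 h, and 7.63 and 7.81 after 9 h, 2.59-fold below 6 h. TRIRE2_106676 read 8.28 and 8.87 in mycelium, 8.23 and 8.53 after 3 h, 8.47 and 8.53 after 6 h, and 7.17 and 7.31 after 9 h, 2.4-fold below 6 h. In both the 6 h pair lay within the spread of the 3 h pair, and the 9 h pair lay more than 1 unit below it. The full group of 10 that passed both thresholds from 6 h to 9 h consisted of these 2 genes, TRIRE2_76659, TRIRE2_70973, TRIRE2_70341, TRIRE2_29756, TRIRE2_63881, TRIRE2_65640, TRIRE2_60739 and TRIRE2_111891.

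Taken step by step, the median falls before and after 6 h were close. The median log2 change was -0.5 between 3 h and 6 h and -0.57 between 6 h and 9 h, against 0.03 and -0.01 over all features. In the earlier step 23 members were lower with both thresholds, or 19.3%, against 2.62% of all features, and 68 by adjusted p alone, against 9.51%. Both 6 h replicas lay below both of 3 h in 86 members, or 72.3%, against 27.3% of all features. In the later step 10 were lower with both thresholds, or 8.4%, against 0.811% of all features, and again 68 by adjusted p alone, against 7.98%. Both 9 h replicas lay below both of 6 h in 108 members, or 90.8%, against 33.6% of all features.

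The members higher over a step by adjusted p were TRIRE2_63881 and TRIRE2_65640 in the earlier step, where 12.2% of all features were, and TRIRE2_106686 in the later one, where 5.33% were. Over both steps together, 64 members were lower at 9 h than at 3 h with both thresholds and 111 by adjusted p alone, beside 3.5% and 12.9% of all features. The 3 h and 9 h arrays chose the members, so neither step nor their sum is independent of the rule, and the steps share the 6 h arrays.

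The larger of the 2 steps was the earlier one in 57 members and the later one in 62. Whether a member's steps differed in size was tested as the 6 h level against the midpoint of 3 h and 9 h, a comparison added after the data had been seen. In 13 members the 6 h level lay below the midpoint with adjusted p under 0.05 (limma), or 10.9%, where 5.94% of all features did. TRIRE2_106686, TRIRE2_107037, TRIRE2_62462 and TRIRE2_5614 were among them, at -1.52, -0.66, -0.46 and -0.39. Of these, TRIRE2_106686, TRIRE2_107037 and TRIRE2_5614 were named as lowest at 6 h, which favours a place below the midpoint. TRIRE2_108591, TRIRE2_65891, TRIRE2_104277 and TRIRE2_110158, given above for their high 3 h level, were also among the 13. In 14 members it lay above, or 11.8%, where 8.32% of all features did. These included TRIRE2_63881 at 1.12 and TRIRE2_65640 at 0.96, together with TRIRE2_29756, TRIRE2_111502, TRIRE2_43225 and TRIRE2_65997 at 0.55 to 0.66, which were named for their high 6 h level. Without the moderation of variances the counts were 4 and 2, and the shares of all features in that test are not given here. The midpoint is made of the 3 h and 9 h arrays that chose the members, so none of these counts is independent of the rule. No timing of a single member is read from them. The other 92 members did not pass this test, which does not show that their steps were equal.

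**Figure D4:**
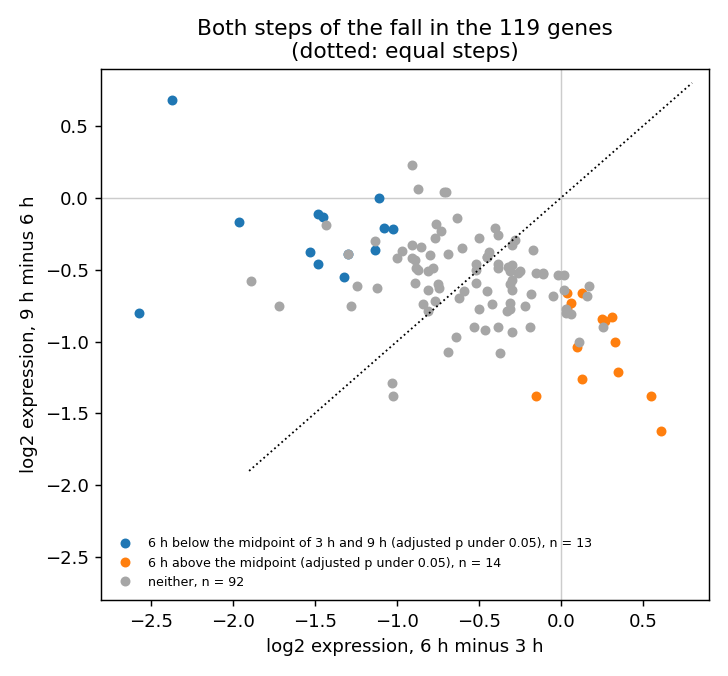
Change in log2 expression from 6 h to 9 h (y axis) against that from 3 h to 6 h (x axis) for the 119 genes, coloured by whether the 6 h level lay below (blue, 13) or above (orange, 14) the midpoint of 3 h and 9 h with adjusted p under 0.05. The 6 h arrays enter both axes, added in one and subtracted in the other, so no relation between the axes is read; TRIRE2_106686 is the point at upper left (-2.37, 0.68).

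Some members were neighbours in the gene order of the assembly. There were 4 pairs of directly adjacent members, which involve 7 genes in 3 runs. Going along the gene order, 15 members were followed by the next member within 5 places. The longest run was TRIRE2_124001, TRIRE2_69771 and TRIRE2_69840. TRIRE2_124001 read 12.16 and 12.4 in mycelium, 11.78 and 11.91 after 3 h, 11.53 and 11.56 after 6 h, and 10.93 and 11.01 after 9 h. TRIRE2_69771 read 10.33 and 10.55 in mycelium, 10.33 and 10.48 after 3 h, 9.82 and 9.93 after 6 h, and 8.92 and 9.03 after 9 h. In both genes the 9 h pair lay below the 6 h pair and the 6 h pair below that of 3 h.

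TRIRE2_69840 was weak and poorly replicated, at 6.29 and 7.06 in mycelium, 5.98 and 7.11 after 3 h, 6.51 and 6.8 after 6 h, and 5.56 and 5.73 after 9 h, so its place in the set rests on values close to the floor. Against 0 h at 6 h the changes were -0.74 for TRIRE2_124001 (adjusted p = 0.00141, limma) and -0.56 for TRIRE2_69771 (adjusted p = 0.0066, limma), both short of 2-fold, and -0.02 for TRIRE2_69840. A further member, TRIRE2_124002, lies 3 places after TRIRE2_69840 and had a far higher signal, at 14.96 and 15.12 in mycelium, 14.69 and 14.96 after 3 h, 13.7 and 13.79 after 6 h, and 13.43 and 13.64 after 9 h. It was 2.46-fold lower at 6 h than in mycelium (adjusted p = 0.000158, limma).

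The other runs paired TRIRE2_62377 with TRIRE2_62462 and TRIRE2_70341 with TRIRE2_82309. TRIRE2_62377 was at 10.65 and 10.79 in mycelium, 10.64 and 10.76 after 3 h, 10.35 and 10.44 after 6 h, and 9.61 and 9.63 after 9 h. Its 6 h change of -0.33 was small beside that of its neighbour TRIRE2_62462 at -1.4. Likewise TRIRE2_70341 had changed by -0.24 at 6 h and its neighbour TRIRE2_82309 by -1.15. TRIRE2_108591 and TRIRE2_63881, 3 places apart, were further from each other still, at -1.4 and 0.39 at 6 h. Other near members were alike at 6 h, such as TRIRE2_120362 and TRIRE2_104222, 4 places apart, at -1.11 and -1.01. TRIRE2_69816 and TRIRE2_69736, 5 places apart, were at -0.69 and -0.68 at 6 h but at -0.57 and 0.31 at 3 h. Near members thus included pairs alike and unlike at 6 h, and whether members lie together more often than other genes was not tested.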

How the data were processed

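Total RNA of 4 groups (0, 3, 6 and 9 h) was measured. The authors deposited RMA-normalized log2 expression, as the submitters' processing notes and the column headings say, as a mean and SD of 2 replicas per time with 1 p-value per feature. The array's genome build was not given in the sources used here. A one-way analysis of variance for 2 replicas with Benjamini-Hochberg adjustment matched the authors' deposited p-value within 1% for 9015 of 9126 features, against 14 assuming 3 replicas. By the authors' deposited p-value, 105 members were under 0.05, or 88.2%, beside 39.0% of all features. That p-value compares all 4 times, including those that chose the members, so nothing is read from this count. The means in the other deposited table were equal to these.

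Replica values were rebuilt as mean ± SD/√2 and fitted with limma 3.58.1 in R 4.3.3 (4 times in 1 fit, 4 residual and 3.82 prior degrees of freedom), adjusting over all features. Calls needed adjusted p under 0.05 and a log2 change of 1, unless p alone is named. RMA equalises array distributions, so changes in total RNA cannot be seen. The number of arrays limits the precision.

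Data were simulated for 6 h against 0 h with 9126 features. Of 100 genes lowered by 2 log2 units 98 passed both thresholds, and of 100 lowered by 1, 41 did and 84 passed p alone. Of 8926 unchanged features 3 passed both thresholds and 11 passed p alone. In the arrays 19.4% of all features were lower and 20.0% higher by adjusted p alone at 6 h. The share of changed features was far smaller in the simulation, which alters the adjustment of p, so these rates need not hold for the arrays.

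Of 9122 TRIRE2 identifiers, 9094 were listed in the RefSeq gene table. Sequence features were not analysed here. Members and lists were chosen with earlier results of these data known. Named were members with a symbol, the 10 largest falls at 9 h, the 5 lowest and 5 least changed at 6 h (among 94 unsymbolled members with a mean level over 9.63, the 25th percentile, and no overlap of replicas between 9 h and 0 h), the genes at the rule's limits, runs of adjacent members and the markers. Other named genes were chosen after their values were seen. Alternatives were quantile normalization, median centring, a low-level filter, a trended prior, a fit of 2 times, other fold thresholds, an unmoderated test and other rule limits.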

Additional observations from a re-analysis of the deposited data

Results flagged for a closer look

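In 4 of the named genes the change from mycelium at 9 h differed from that at 6 h by the test of the difference itself, 9 h against 6 h, with adjusted p under 0.05 and at least a 2-fold change (limma). The difference was -1.38 log2 units in TRIRE2_76659, -1.29 in TRIRE2_70973, -1.0 in TRIRE2_29756 and -1.07 in TRIRE2_70341. The 9 h arrays also chose all 4. TRIRE2_76659 and TRIRE2_70973 were named among the 10 largest falls at 9 h, a choice that favours a large difference. TRIRE2_76659 was also among the 5 named as lowest at 6 h. TRIRE2_29756 and TRIRE2_70341 were named for being near their mycelial level at 6 h. In TRIRE2_76659, TRIRE2_29756 and TRIRE2_70341 both times of the contrast thus entered the choice, and in TRIRE2_70973 the 9 h level did. In none of the 4 is the p of this contrast independent evidence.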

How the results depend on the processing

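Quantile normalization used rebuilt replica values whose order is unknown, so its arrays mix replicas arbitrarily. Applied after quantile normalization the rule gave 130 genes, 116 of them shared with the 119, and after median centring 128, with all 119 shared. Quantile normalization, median centring, a trended prior, fits of 2 times and the low-level filter kept every count of members within 1.5 times its value. Narrower rule limits leave fewer genes by construction. With 3 h within 0.4 of 0 h there were 75 members, of which 20 were lower for 6 h against 0 h, 13 for 6 h against 3 h and 75 for 9 h against 0 h. With 9 h at least 1.5 below 0 h there were 28 members. Of these 19 were lower for 6 h against 0 h, 14 for 6 h against 3 h, 3 for 9 h against 6 h, 28 for 9 h against 3 h and 28 for 9 h against 0 h, and their median change at 6 h was -1.17. By adjusted p alone the counts were 92 for 6 h against 0 h, 68 for 6 h against 3 h, 68 for 9 h against 6 h and 111 for 9 h against 3 h, where 64 passed both thresholds. At 1.5-fold they were 73, 55, 48 and 105. The shares of all features at 1.5-fold are not given here, so these counts show only how the threshold matters. The unmoderated test left 4 members lower at 9 h than at 6 h in place of 10. It left 4 below and 2 above the midpoint at 6 h in place of 13 and 14. The shares of all features in the unmoderated test are not given here. Whether members lost more calls than the array as a whole is therefore not shown, and the cause was not tested. For erg28 and the 15 genes named by the size of their change no direction turned under the alternatives run; the other named genes were not rerun. Without moderation the fall from 6 h to 9 h no longer passed in TRIRE2_70973, TRIRE2_29756 and TRIRE2_70341, and after quantile normalization TRIRE2_29756 ended at -0.99. No paired analysis was possible because the table holds means and SDs and no replica numbers. For the same reason leaving out a replica was not run.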
